A study of Mus musculus with 13 samples.

Results

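Dendritic cells of mouse liver that carried transcripts of Ly6c2, which encodes a GPI-anchored surface protein of monocytes, plasmacytoid dendritic cells (pDC) and some lymphocytes, were set against Ly6c2-negative cells picked by the same gate. Among 95563 barcodes with at least 1500 unique molecular identifiers (UMIs) in 13 single-cell RNA-seq libraries, 4280 met a gate for type 2 conventional dendritic cells (cDC2): at least 2 UMIs of Cd209a and 5 of H2-Ab1, none of Xcr1 or Clec9a, at most 1 of Fscn1 and at most 3 of C1qa, C1qb and C1qc together, whatever the Flt3 count. Of these, 475 had at least 2 UMIs of Ly6c2 and were called Ly6c2-positive, 310 had 1 UMI and were set aside, and 3495 had none and were called Ly6c2-negative. Only libraries with at least 20 cells of both classes entered the comparison, which left 429 Ly6c2-positive and 2801 Ly6c2-negative cells of 3517 gated cells in 6 libraries. Measured Ly6c2, Cd209a and H2-Ab1 UMIs chose the members, so the levels of these genes are described without a test.

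All libraries came from livers of male C57BL/6J mice. Cholangitis was induced with chow containing 3,5-diethoxycarbonyl-1,4-dihydrocollidine (DDC), a porphyrinogenic compound that injures bile ducts, and D0, D3, D5, D9, D19 and D25 give the days on diet, D0 being steady state without DDC. Each day had 1 library of isolation protocol A, sorted for broad CD45+, endothelial, biliary and stellate gates, and 1 of protocol B, sorted for CD45+ Itgax+ CD64- myeloid cells, Epcam+ cells, CD3e+ Lyve-1- cells and live cells of a stellate cell preparation. STOP was a protocol B library taken after prolonged diet and 7 days of recovery on normal chow. The 6 compared libraries were D0 B, D5 B, D9 B, D19 B, D25 B and STOP, all of protocol B. The labels do not say how many mice went into each, so p-values measure the spread between these libraries, except where stated. For D19 B, the title gives day 19 and another label field names the preceding day. Library totals ran from 29307190 to 108602421 UMIs, and no 2 libraries shared more than 49 of their cell barcodes, with 1 gated barcode in common in 1 of 78 pairs.

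Dendritic cells arise in bone marrow from Flt3-dependent progenitors. Their circulating pre-dendritic cells (preDC) reach tissues with low MHC class II and complete their differentiation there, and preDC share many transcripts with pDC, among them Siglech, Tcf4, Runx2 and Ly6c2. Cells of the cDC2 lineage take up antigen in tissue, load it on MHC class II and present it to CD4+ T cells. The lectin Mgl2 marks mature tissue cDC2 of the type called cDC2B. pDC, by contrast, are specialised in type I interferon production and depend on the transcription factor TCF4.

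Promoter windows of RefSeq (GRCm38.p6) are shown for the gene that split the cells and for 4 genes called between the classes (Siglech, Klk1 and Runx2 higher in Ly6c2-positive cells, Mgl2 lower), because TCF4 is a basic helix-loop-helix factor whose family binds E-box letters. Capitals mark each CANNTG, N being any base. The motif reads the same on both strands. Each window spans 250 bases upstream to 50 bases downstream of the annotated start, printed 5′ to 3′ on the strand of the gene, and windows were available for 67 of the 90 genes named here. Ly6c2 lies at chr15:75111922-75112221 (minus strand, the first of 2 windows), Siglech at chr7:55767934-55768233 (plus strand), Klk1 at chr7:44225110-44225409 (plus strand), Runx2 at chr17:44814578-44814877 (minus strand) and Mgl2 at chr11:70130107-70130406 (plus strand).
Ly6c2: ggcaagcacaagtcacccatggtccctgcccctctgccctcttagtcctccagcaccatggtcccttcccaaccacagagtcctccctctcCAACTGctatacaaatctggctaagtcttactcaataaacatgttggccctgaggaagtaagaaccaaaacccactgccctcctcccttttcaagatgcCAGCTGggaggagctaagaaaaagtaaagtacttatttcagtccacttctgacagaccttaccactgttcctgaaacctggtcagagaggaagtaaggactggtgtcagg
Siglech: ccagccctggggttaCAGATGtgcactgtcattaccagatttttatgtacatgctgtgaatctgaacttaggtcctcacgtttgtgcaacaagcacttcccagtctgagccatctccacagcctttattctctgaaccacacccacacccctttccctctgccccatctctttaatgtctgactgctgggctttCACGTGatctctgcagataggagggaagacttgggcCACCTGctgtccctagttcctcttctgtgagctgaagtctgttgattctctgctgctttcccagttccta
Klk1: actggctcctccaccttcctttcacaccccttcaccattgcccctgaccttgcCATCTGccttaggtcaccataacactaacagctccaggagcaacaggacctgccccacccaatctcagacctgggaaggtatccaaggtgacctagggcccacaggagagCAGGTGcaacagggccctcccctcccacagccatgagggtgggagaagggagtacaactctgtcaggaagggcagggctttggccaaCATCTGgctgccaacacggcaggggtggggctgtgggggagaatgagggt
Runx2: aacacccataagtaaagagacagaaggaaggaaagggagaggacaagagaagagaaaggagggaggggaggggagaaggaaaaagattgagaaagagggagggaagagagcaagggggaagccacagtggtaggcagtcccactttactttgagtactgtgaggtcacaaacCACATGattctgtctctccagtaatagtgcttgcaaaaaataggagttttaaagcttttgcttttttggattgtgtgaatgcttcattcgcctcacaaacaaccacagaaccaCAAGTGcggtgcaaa
Mgl2: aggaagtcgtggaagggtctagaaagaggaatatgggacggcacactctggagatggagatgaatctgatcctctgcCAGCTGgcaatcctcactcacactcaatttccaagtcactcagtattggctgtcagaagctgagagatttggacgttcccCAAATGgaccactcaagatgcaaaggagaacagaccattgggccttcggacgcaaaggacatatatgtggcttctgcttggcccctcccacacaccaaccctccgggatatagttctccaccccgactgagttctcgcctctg
These windows held 2, 3, 3, 2 and 2 motifs in that order. The letters are common: 72.3% of all 32851 windows held at least 1, beside 19 of 22 windows (86.4%) of named genes higher in Ly6c2-positive cells and 35 of 43 (81.4%) of those lower.

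The genes of the gate separated the classes as its thresholds required, and Cd209a and H2-Ab1 lay lower in Ly6c2-positive cells although every cell had passed the same minimum. In CPM (UMIs of the gene in the summed class, scaled to a common class total, without TMM factors), Ly6c2 reached 1029.6, 837, 803, 965, 855 and 922 in the Ly6c2-positive cells of D0 B, D5 B, D9 B, D19 B, D25 B and STOP. Cd209a, a C-type lectin of cDC2, stood at 1101, 701, 487, 492, 454 and 658 CPM in Ly6c2-positive cells, in the same order, and at 1609, 833, 663, 759.5, 730.4 and 919 CPM in Ly6c2-negative cells. H2-Ab1, an MHC class II beta chain, ranged from 4108 to 6733 CPM and from 8952 to 15653 CPM in the respective classes, and was lower in the Ly6c2-positive cells of all 6 libraries. Reads of Ly6c2 can also come from its neighbour Ly6c1: 403 of the 836 sequences of 31 bases in Ly6c2 transcripts (48.2%) also occur in Ly6c1, so the split between both genes in these counts is uncertain. Ly6c1 had 17 UMIs in Ly6c2-positive and 37 in Ly6c2-negative cells.

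The label cDC2 held only in part for the Ly6c2-positive cells. They carried pDC transcripts in all 6 libraries and T cell transcripts above the Ly6c2-negative level, while the cDC2 identity list was lower, and they are therefore called by the rule, as Ly6c2-positive cells, here. The summed level of 13 pDC genes ranged over 2879 to 12396 CPM in the Ly6c2-positive and 499.8 to 790.2 CPM in the Ly6c2-negative cells, and that of 9 T and NK cell genes over 563 to 1690.1 CPM in the Ly6c2-positive and 148 to 1053 CPM in the Ly6c2-negative cells. Both were higher in the Ly6c2-positive cells of 6 of 6 libraries. For 12 cDC2 identity genes the sum gave 890.4 to 1825 CPM in the Ly6c2-positive and 1337 to 2171 CPM in the Ly6c2-negative cells. Depth did not separate the classes in 1 direction: median UMIs per cell were 4469.5 and 5127 in D0 B (Ly6c2-positive first), 9051 and 8244.5 in D5 B, 11199 and 10450.5 in D9 B, 8677.5 and 8520 in D19 B, 10094.5 and 9582 in D25 B, and 9604.5 and 7870 in STOP. Mitochondrial UMIs made up 1.2% to 3.33% of the Ly6c2-positive and 0.687% to 2.75% of the Ly6c2-negative sums. No doublet caller was run, and barcodes holding more than 1 cell were not removed.

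To see whether Ly6c2-positive cells became more frequent during cholangitis, their share of gated cells was compared between libraries. In protocol B the share was 13.3% at D0 (90 of 679 cells), 12.1% at D3 (18 of 149), 10.6% at D5 (129 of 1215), 14.3% at D9 (74 of 516), 11.7% at D19 (60 of 515), 15.5% at D25 (50 of 322) and 9.63% in STOP (26 of 270). Exact 95% Clopper-Pearson intervals, which cover counting error only, were widest for D3 B (7.32% to 18.4%) and narrowest for D5 B (8.94% to 12.5%). The interval at D0 overlapped that of every other protocol B library. Without cells with a UMI of the pDC genes Ly6d, Ccr9, Klk1, Cox6a2 or Pacsin1, it no longer did. D0 B then held 3.38% (2.01% to 5.28%), below the intervals of D5 B (7.97%, 6.45% to 9.71%), D9 B (9.84%, 7.24% to 13%) and D25 B (9.02%, 5.87% to 13.1%), and overlapping those of D3 B (8.06%), D19 B (6.14%) and STOP (6.85%). These intervals compare cells of 1 library per day and do not test a difference between days. D0 B also had the lowest median UMIs per cell of the protocol B libraries, and the share without these cells was not thinned to a common depth. Protocol A held few gated cells, with Ly6c2-positive shares of 17.4% at D0 (4 of 23), 3.85% at D3 (4 of 104), 2.53% at D5 (8 of 316), 6.92% at D9 (9 of 130), 18.8% at D19 (3 of 16) and 0 of 25 at D25, where the exact interval reached 13.7%. Over libraries with at least 20 gated cells, the share was 8.61% ± 5.51 (SD, n = 9) on DDC and 15.3% ± 2.92 (n = 2) at steady state, a difference of -6.71 points (exact permutation test within protocol, two-sided, p = 0.1; smallest possible p = 0.0333). That difference was -14.1 points within protocol A and -0.411 within protocol B. Without cells with pDC UMIs it shrank to -1.22 points (exact permutation p = 0.567) and the protocols were opposed, at -7.96 points in A and 4.83 in B. Progression (D9, D19 and D25; 9.69% ± 6.35, n = 5) and onset (D3 and D5; 7.27% ± 4.78, n = 4) differed by 2.42 points (exact permutation p = 0.233, smallest possible p = 0.0167), by 0.273 within protocol A and 2.49 within protocol B, so neither difference exceeded the spread between libraries. Without cells with pDC UMIs the latter difference turned to -0.160 points (-2.11 within protocol A, 0.318 within protocol B), and under the other settings the first ran from -6.95 to -3.34 points and the latter from 2.45 to 3.94. As a background, at least 2 Ly6c2 UMIs were found in 0% to 0.862% of Epcam+ cholangiocyte-gated cells per library, at median depths of 9545.5 to 21677 UMIs. Another dendritic cell gate, that of type 1 conventional dendritic cells (cDC1; at least 2 UMIs of Xcr1 and Clec9a in sum and 5 of H2-Ab1, no Cd209a), set no limit on Ly6c2 and held at least 2 Ly6c2 UMIs in 0% to 20.5% of cells. In D3 B (20.5%) and D5 B (11.4%) that share was above the Ly6c2-positive share of the cells in the Cd209a gate, and in the other 5 protocol B libraries, at 5.52% to 9.89%, it was below it; these differences were not tested.

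Across all genes, the classes differed broadly. edgeR's quasi-likelihood test on UMI sums per library and class, with library as a block, called 1425 of 8587 genes (16.6%) at a Benjamini-Hochberg adjusted p under 0.05. Of these, 682 genes (7.94% of those tested) were higher and 743 (8.65%) lower in Ly6c2-positive cells. In 166 genes (1.93%) every Ly6c2-positive sum lay above every Ly6c2-negative sum, and in 108 (1.26%) below. Without the block 371 genes were called, and 863 against Ly6c2-negative cells matched on depth. The median log2 fold change over all genes was -0.0060. Lists are also counted below in sets that left out cells by their UMIs. There edgeR called 597 genes higher and 742 lower of 6379 without UMIs of other lineages. It called 250 higher and 366 lower of 7892 without pDC UMIs. Without Siglech UMIs it called 239 higher and 260 lower of 7905. Without any of these it called 39 higher and 159 lower of 5562. Hereafter, levels are CPM scaled by TMM factors unless called unscaled, fold changes are log2 differences of Ly6c2-positive minus Ly6c2-negative cells, and adjusted p-values are edgeR's. The filter on low counts asked for 5.87 CPM in at least 6 of the 12 sums, and a gene can pass it mainly through the class where it is high, so that its direction is partly set by the filter. Among the named genes of the lists used here this held for Cd7, Cd4, Cxcr3, Klk1, Pacsin1, Cox6a2, Irf8, Cd8a and Cd79b, called higher, and for Mgl2, Ccl17, Ifit3, Rsad2, Cxcl9, Lyve1, Spp1, Krt8, Krt7 and Rgs5, called lower, none of which reached that level in all 6 sums of the class where it was low. Because the sums pool cells, a higher value can come from more cells with the transcript or from more transcripts per cell.

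Of the 5 preDC genes named by the study, Siglech, Runx2, Tcf4 and Cd7 rose in Ly6c2-positive cells and Csf1r fell. The study chose this list on these same libraries, so it is not independent evidence of their direction. The median over the 5 genes was 2.04, against -0.0060 over all genes. Siglech, a sialic acid-binding receptor of pDC and pre-dendritic cells, stood in Ly6c2-positive cells at 1371 CPM in D0 B, 470.2 in D5 B, 885 in D9 B, 1102 in D19 B, 463 in D25 B and 294 in STOP, against 20.5, 14, 20.2, 41.9, 10.2 and 26.6 CPM in Ly6c2-negative cells of the same libraries. The ranges did not overlap, the lowest Ly6c2-positive value being that of STOP, and the log2 fold change was 5.06 ± 0.25 (SE, adjusted p = 1.79e-07). Runx2, a runt-family transcription factor that pDC use to leave the bone marrow, reached 159.8, 182, 236, 383, 109.8 and 126 CPM in Ly6c2-positive and 20.1, 22, 31.9, 42.3, 19.5 and 26.6 CPM in Ly6c2-negative cells, in the order D0 B to STOP, highest at D19 B in both and again without overlap (2.87 ± 0.13 SE, adjusted p = 9.46e-08). Tcf4, the pDC lineage transcription factor also expressed in their precursors, gave 804, 589, 891, 1173, 579 and 598 CPM against 80.2, 165, 212, 275, 207 and 202 CPM, and here D0 B paired a Ly6c2-positive level within the range of the others with the lowest Ly6c2-negative level (2.04 ± 0.19 SE, adjusted p = 1.72e-05). Every Ly6c2-positive value of Tcf4 lay above every Ly6c2-negative one.

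Cd7, an immunoglobulin-family receptor of T cells and early lymphoid and dendritic progenitors, was a low transcript with 109, 11.4, 45.9, 14, 4.71 and 10.3 CPM in Ly6c2-positive and 17.8, 4.3, 12.5, 4.54, 2.12 and 4.51 CPM in Ly6c2-negative cells. It was higher in 6 of 6 libraries but the ranges overlapped, and D0 B was above the other libraries in both classes (1.85 ± 0.24 SE, adjusted p = 0.000248). Cd7 reached the level of the filter in 5 of 6 Ly6c2-positive and 2 of 6 Ly6c2-negative sums. Csf1r, the receptor for macrophage colony-stimulating factor, moved the other way, with 16.2, 78.2, 96.7, 92.2, 81.6 and 51.3 CPM in Ly6c2-positive and 78, 122, 144, 154, 109.6 and 67.7 CPM in Ly6c2-negative cells. It was lower in all 6 libraries, most so in D0 B, with overlapping ranges (-0.71 ± 0.15 SE, adjusted p = 0.00705). Csf1r lost its call without cells with pDC UMIs (-0.17, adjusted p = 0.576) and without cells with a Siglech UMI (-0.41, adjusted p = 0.0727). Among cells with neither pDC nor T cell UMIs its unscaled level was higher in the Ly6c2-positive cells of each library, as given below without a test. In the fit without cells with Siglech, other pDC or other lineage UMIs, also given below, its fold stayed negative and was not called. The direction of Csf1r in such cells is thus not settled. Mgl2 fell most of the cDC2B genes, from 828, 406, 310.4, 116, 192 and 99.8 CPM in Ly6c2-negative to 83.4, 95.7, 71.8, 19.6, 53.3 and 3.42 CPM in Ly6c2-positive cells, and no Ly6c2-positive value reached the lowest Ly6c2-negative one (-2.41 ± 0.19 SE, adjusted p = 5.83e-06). STOP was lowest in both classes, its Ly6c2-positive value resting on 1 UMI.

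**Figure D1:**
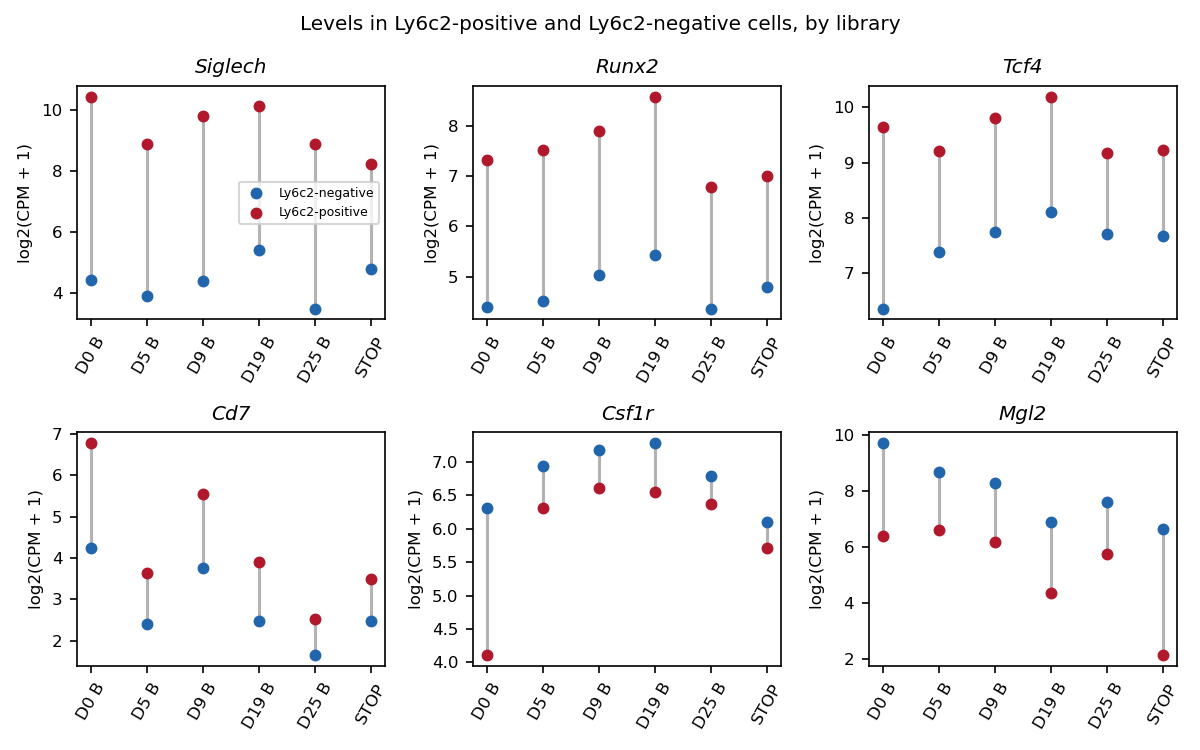
Each panel plots log2(CPM + 1) of 1 gene by library, with Ly6c2-positive and Ly6c2-negative sums of a library joined by a line. Siglech, Runx2 and Tcf4 lie higher and Mgl2 lower in Ly6c2-positive cells of all 6 libraries without overlap, Cd7 is higher and Csf1r lower in all 6 with overlap.

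The same contrast appeared in single cells thinned to 1500 UMIs each, which removes the depth difference between cells from the detection of these genes. The gate and the Ly6c2 classes were still set on unthinned counts, so depth could still bear on class membership. A Siglech UMI then remained in 26.4% to 74.4% of Ly6c2-positive and 1.61% to 4% of Ly6c2-negative cells per library, a Tcf4 UMI in 45.7% to 70% of Ly6c2-positive and 6.63% to 31.3% of Ly6c2-negative cells and a Runx2 UMI in 15.4% to 38.3% of Ly6c2-positive and 1.66% to 5.65% of Ly6c2-negative cells. Before thinning, these shares were 34.6% to 83.3% against 3.23% to 12.6% for Siglech, 76.9% to 98.6% against 19.4% to 74.6% for Tcf4, and 41.1% to 75% against 6.45% to 24.8% for Runx2. In Epcam+ cholangiocyte-gated cells, which should lack Siglech, an unthinned UMI of it was found in 0.431% of cells in D5 B, 3.23% in D9 B, 1.47% in D19 B, 0.306% in D25 B and 0 of 310 cells in STOP (exact interval up to 1.18%). The unthinned Ly6c2-negative shares of the same libraries, 7.89%, 12.6%, 11.3%, 5.39% and 5.53%, were all above that level, as were the Ly6c2-positive ones. A Tcf4 UMI was found in 40.9% to 69.0% of cholangiocyte-gated and 19.8% to 73.7% of cDC1-gated cells over all libraries, so the unthinned Ly6c2-negative Tcf4 shares spanned much the same range and the Ly6c2-positive ones lay above it; Runx2 was not measured there. In the cDC1 gate, at median depths of 7857 to 16372 UMIs, a Siglech UMI was found in 6.41%, 15.3%, 26.5%, 14.1%, 10.9% and 11.2% of cells from D0 B to STOP, above the Ly6c2-negative and below the Ly6c2-positive share in each library. Csf1r stayed in 3.33% to 13.5% of Ly6c2-positive and 7.17% to 21.6% of Ly6c2-negative cells, lower in 6 of 6 libraries, and Mgl2 in 0% to 7.78% of Ly6c2-positive and 7.23% to 33.3% of Ly6c2-negative cells, also lower in 6 of 6. Cd7 was too sparse to rank this way: it remained in 0% to 12.2% of Ly6c2-positive and 0.415% to 2.97% of Ly6c2-negative cells, higher in 4 libraries and lower in 2.

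Among 11 other genes of dendritic cell precursors, 9 passed the filter on low counts, of which 5 rose (Satb1, Lair1, Bcl11a, Klf2 and Spn), 1 fell (Kit) and 3 were not called, with a median of 0.38. Lair1, an inhibitory collagen receptor, changed by 2.82 ± 0.25 (SE, adjusted p = 1.4e-05). Satb1, a chromatin organiser of early lymphoid cells, changed by 1.55 ± 0.12 (SE, adjusted p = 5.09e-06). Bcl11a, a transcription factor needed for pDC and early dendritic development, changed by 1.15 ± 0.10 (SE, adjusted p = 1.44e-05), each without overlap between classes. When cells with a Siglech UMI were left out of both classes, Lair1 lost its call at 0.22 (adjusted p = 0.798) and Bcl11a at 0.43 (adjusted p = 0.084), and when cells with a UMI of Ly6d, Ccr9, Klk1, Cox6a2 or Pacsin1 were left out, Lair1 lost it at 0.67 (adjusted p = 0.169); Satb1 was called higher in both sets (1.89 and 1.43). Spn, a leukocyte sialoglycoprotein (0.38, adjusted p = 0.044), lost its call against depth-matched cells (0.30, adjusted p = 0.235), in the pDC exclusion (0.34, adjusted p = 0.292) and in the Siglech exclusion (0.43, adjusted p = 0.18). Klf2, a quiescence factor of lymphocytes (0.72, adjusted p = 0.00643), lost it in the pDC exclusion (0.35, adjusted p = 0.224) and without UMIs of other lineages (0.42, adjusted p = 0.107). Kit, the stem cell factor receptor of early progenitors, went the other way at -0.96 ± 0.14 (SE, adjusted p = 0.000498). Flt3, the receptor for the growth factor that drives all dendritic lineages, differed by -0.033 ± 0.10 (SE, adjusted p = 0.913), with 137 ± 42.3 and 140.4 ± 41.9 CPM (SD, n = 6). It was higher in 2 libraries and lower in 4. Cd34 and Myb, progenitor genes, did not pass the filter, with 10 and 40 UMIs in all Ly6c2-positive cells and 173 and 30 UMIs in all Ly6c2-negative cells.

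Of 13 pDC genes 11 passed the filter, and all 11 were called higher. Of these, Siglech, Tcf4, Runx2, Bst2, Ly6d, Spib and Klra17 reached its level of 5.87 CPM in all 6 Ly6c2-negative sums. The other 4 (Klk1, Pacsin1, Cox6a2 and Irf8) did so in 0 to 2 of them and passed mainly through the Ly6c2-positive sums. The other 2 of the 13, Ccr9 and Smim5, had 48 and 7 UMIs in Ly6c2-positive cells and 7 and 6 in Ly6c2-negative cells. Klk1, a tissue kallikrein abundant in mouse pDC, reached 1454, 109, 219, 289, 207 and 3.42 CPM in Ly6c2-positive and 23.2, 0.126, 0.396, 4.07, 0.425 and 0.451 CPM in Ly6c2-negative cells, in the order D0 B to STOP, with the fold smallest in STOP (6.73 ± 0.32 SE, adjusted p = 1.5e-07). Irf8, the transcription factor of pDC and of type 1 conventional dendritic cells, gave 113, 22, 44, 65.6, 9.41 and 10.3 against 7.13, 2.53, 4.56, 4.3, 1.7 and 4.51 CPM without overlap (3.31 ± 0.28 SE, adjusted p = 1.08e-05). Pacsin1, an endocytic adaptor of pDC, and Bst2, the tetherin antigen used to sort mouse pDC, changed by 4.19 and 2.44, both without overlap. Ly6d, a surface marker of lymphoid-derived pDC progenitors, rose by 3.97 ± 0.58 (SE, adjusted p = 0.000537) but was higher in 5 of 6 libraries only, since STOP held 78.6 CPM in Ly6c2-positive and 79.0 CPM in Ly6c2-negative cells.

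Single cells showed that pDC transcripts were spread over most, not all, Ly6c2-positive cells of each library except STOP. A UMI of any of Siglech, Ly6d, Ccr9, Klk1, Cox6a2 or Pacsin1 was present, among Ly6c2-positive cells, in 84.4% in D0 B, 51.2% in D5 B, 70.3% in D9 B, 78.3% in D19 B, 66% in D25 B and 46.2% in STOP, and in 10.2% to 18.8% of Ly6c2-negative cells. UMIs of Cd3e, Cd3d, Cd3g or Trbc2, genes of the T cell receptor complex, were present, among Ly6c2-positive cells, in 20% in D0 B, 62.8% in D5 B, 41.9% in D9 B, 33.3% in D19 B, 46% in D25 B and 57.7% in STOP, against 10.6% to 49.9% of Ly6c2-negative cells, and in each library the Ly6c2-positive share was the higher. D0 B had the largest pDC share and the smallest T cell share. Of the 429 Ly6c2-positive cells, 190 (44.3%) carried pDC genes alone, 96 (22.4%) both, 92 (21.4%) T cell genes alone and 51 (11.9%) neither. Median UMIs per cell, taken as the median over libraries, were 8015, 11366, 12278 and 8095 in these sets, so the cells with T cell genes were the deepest. Unscaled Tcf4 levels, again as medians over libraries, ran to 1405, 841, 193 and 251 CPM in the same order, and H2-Aa levels to 5519, 5592, 8091 and 8813 CPM. Tcf4 was thus high where pDC UMIs were present, and H2-Aa, an MHC class II alpha chain, was high where they were absent. The part of other cells or free RNA in these shares was not tested.

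**Figure D2:**
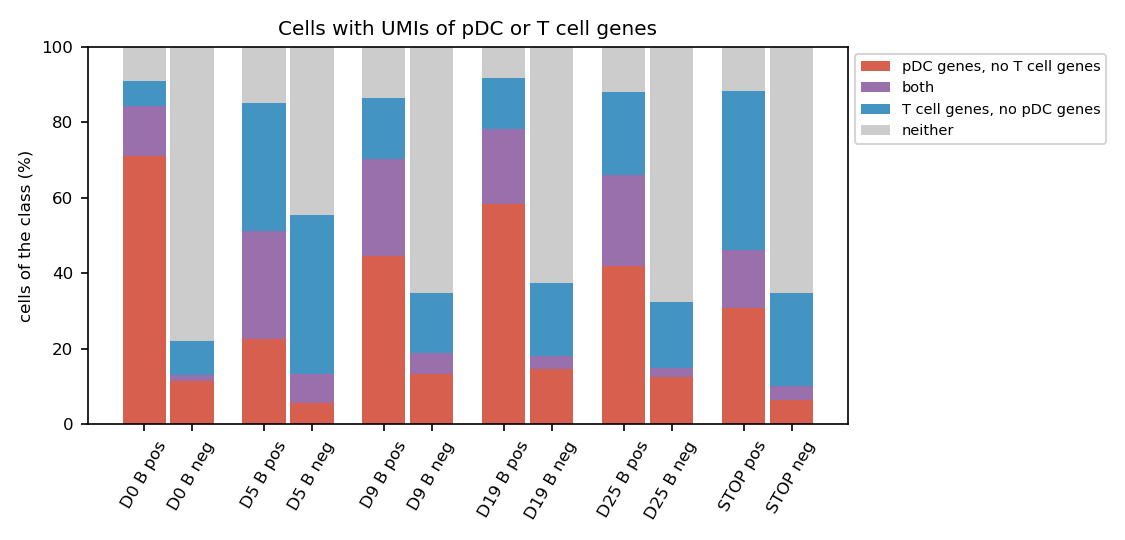
Stacked bars give, for each library and class, the percentage of cells with UMIs of pDC genes only, of both pDC and T cell genes, of T cell genes only and of neither. Cells with neither make up 8.33% to 14.7% of Ly6c2-positive and 44.5% to 78.0% of Ly6c2-negative cells.

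For scale, the Ly6c2-positive cells were set beside pDC of the same libraries, gated by at least 2 Siglech UMIs, any UMI of Ccr9, Klk1 or Ly6d and no Cd209a. They were also set beside a monocyte gate of Ly6c2, Lyz2 and Ccr2 without Cd209a or Siglech. These gates held 57 to 391 and 9 to 44 cells per library. The monocyte gate set no limit on the cDC1 genes Xcr1 and Clec9a, which had medians of 132 and 107 CPM in it. Its levels are thus not those of monocytes alone. Of the unscaled pDC level, the Ly6c2-positive cells had 35.8% for Tcf4, 31.1% for Runx2, 36.2% for Bst2, 18.6% for Irf8 and 23.4% for Pacsin1, as medians over 6 libraries. These varied between libraries, from 29.4% to 76.7% for Tcf4, 19.4% to 63.0% for Runx2, 26.5% to 80.7% for Bst2, 7.71% to 65% for Irf8 and 11.5% to 63.8% for Pacsin1. They had 131% for Satb1, 108% for Flt3, 97.9% for Cd7 and 452% for Csf1r. The pDC genes among these were thus below the pDC level, while the medians of Satb1 and Csf1r were above it and those of Flt3 and Cd7 close to it; over libraries the values ran from 88.7% to 192% for Satb1, 118% to 675% for Csf1r, 81.4% to 125% for Flt3 and 87.7% to 224% for Cd7, without a test. Of the monocyte markers, Lyz2, the lysozyme of myeloid cells, which the monocyte gate itself required, stood at a median of 293 CPM in Ly6c2-positive, 348 in Ly6c2-negative and 7995 in monocyte-gated cells, and Fcgr1, which encodes the CD64 used to exclude cells in the sort, at 6.8, 14.3 and 30 CPM. Other monocyte markers were close to the level of that gate. The Ly6c2-positive cells had 103% of it for S100a4, 99.3% for Ms4a4c, 109.7% for Plac8 and 86.3% for Ccr2, the last also required by the gate.

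Cells just inside and just outside the threshold are described without a test. In the 6 libraries 2801 cells had no Ly6c2 UMI, 287 had 1, 72 had 2, 141 had 3 to 5, 87 had 6 to 9 and 129 had at least 10. In that order, the median unscaled level over libraries was 18, 66.8, 205, 179, 734 and 1518 CPM for Siglech, 202, 292, 576, 521, 748 and 1084 CPM for Tcf4 and 24.3, 48, 95.1, 123, 192 and 287 CPM for Runx2. Cells with 1 UMI, outside the class, lay between those with none and those with 2 for all 3 genes, and cells with at least 10 were the highest. Csf1r gave 107, 119.7, 124, 112, 76.7 and 32.3 CPM and Mgl2 251, 84.8, 49.2, 39.8, 73.2 and 16.4 CPM, both lowest in cells with at least 10 UMIs, and Flt3 gave 135, 119, 149.7, 117, 91.7 and 163 CPM without an order.

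**Figure D3:**
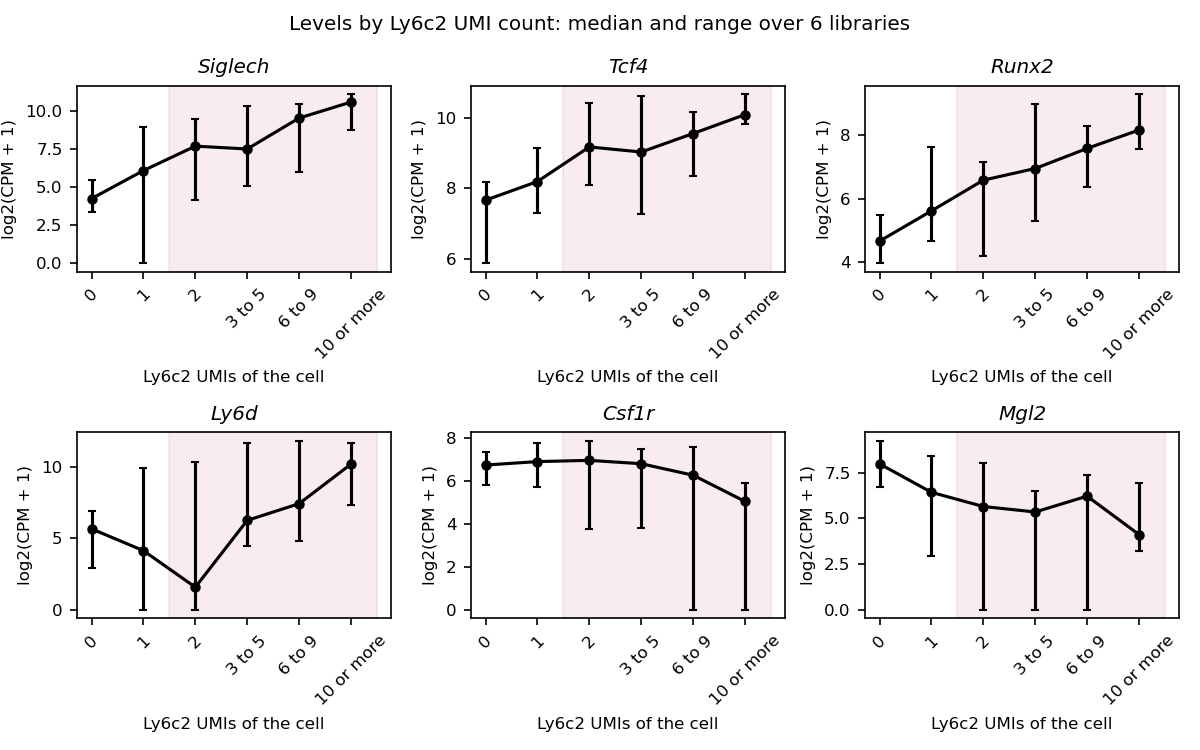
Each panel plots the level of 1 gene, as log2(unscaled CPM + 1), by the Ly6c2 UMIs of the cell, with points at the median and bars from the lowest to the highest of 6 libraries. Siglech, Tcf4 and Runx2 are highest and Csf1r and Mgl2 lowest at 10 or more UMIs.

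Transcripts of MHC class II genes were mostly lower in Ly6c2-positive cells. Of 10 genes of MHC class II presentation, 8 fell, none rose and 2 (Ciita and H2-Eb2) were not called, with a median of -1.17. H2-Eb1, an MHC class II beta chain, stood in Ly6c2-positive cells at 5315 CPM in D0 B, 5958 in D5 B, 4392 in D9 B, 3567 in D19 B, 5307 in D25 B and 4804 in STOP, against 19292, 12285, 10912, 10504, 14870.3 and 10329 CPM in Ly6c2-negative cells. Every Ly6c2-positive value was below every Ly6c2-negative one, and D0 B was highest among the Ly6c2-negative cells (-1.39 ± 0.10 SE, adjusted p = 4.38e-06). H2-Aa fell by 1.20 on the log2 scale, also without overlap, Cd74, the invariant chain that escorts class II molecules, by 1.13, and H2-DMb2, part of the peptide-loading dimer H2-M, by 1.29, the last pair with overlap. The gate itself required H2-Ab1, which bounds class II expression in both classes from below.

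The cDC2 identity list, 12 genes of which 11 passed the filter, had 6 genes lower, none higher and 5 not called, with a median of -0.48. Itgax, the CD11c chain used in the sort, gave 81, 151, 169, 121, 127 and 71.8 CPM against 161, 227, 224, 187, 211 and 191 CPM from D0 B to STOP and changed by -0.72 ± 0.11 (SE, adjusted p = 0.000841). Clec4a2, an inhibitory C-type lectin, changed by -1.27 ± 0.23 (SE, adjusted p = 0.00269). Rel, an NF-kB subunit, changed by -0.72 ± 0.10 (SE, adjusted p = 0.000381). Dpp4, the CD26 peptidase, changed by -0.48 ± 0.11 (SE, adjusted p = 0.00784). Zbtb46, the transcription factor that distinguishes conventional dendritic cells from monocytes and pDC, fell by 0.76 (adjusted p = 0.0297), whereas Irf4, which drives cDC2 development, was not called (0.25, adjusted p = 0.337). Zbtb46 lost its call against depth-matched cells (-0.60, adjusted p = 0.116), without pDC UMIs (-0.37, adjusted p = 0.43) and without Siglech UMIs (-0.54, adjusted p = 0.239). Among 10 cDC2B genes, 5 fell (Mgl2, Il1b, Clec10a, Fcgr2b and Ifitm3), 1 rose (Clec12a) and 4 were not called, with a median of -0.76. Il1b, the interleukin-1 beta precursor, changed by -1.50 ± 0.12 (SE, adjusted p = 5.95e-06) and Fcgr2b, the inhibitory IgG receptor, by -0.98 ± 0.16 (SE, adjusted p = 0.000987), both without overlap, Clec10a, a galactose-binding lectin related to Mgl2, by -0.81 ± 0.10 (SE, adjusted p = 0.000157). Clec12a, an inhibitory lectin of myeloid cells and pDC, changed by 0.46 ± 0.11 (SE, adjusted p = 0.0131). Ifitm3, an interferon-induced membrane protein, lost its call without pDC UMIs (-0.12, adjusted p = 0.484) and without Siglech UMIs (-0.18, adjusted p = 0.311), and Clec12a turned to -0.17 and -0.24. Of 10 cDC2A genes 8 passed the filter, of which Jaml and Cd4 rose, Nr4a3 fell and 5 were not called (median -0.01). Jaml, a junctional adhesion molecule, changed by 0.64 (adjusted p = 0.00377). Cd4, the MHC class II co-receptor also found on pDC and T cells, changed by 1.78 (adjusted p = 0.00723). Nr4a3, an activation-induced nuclear receptor, changed by -0.31 (adjusted p = 0.0301). Nr4a3 lost its call without any 1 of D5 B, D9 B, D19 B and D25 B (-0.33 to -0.28). Cd4 lost its call against depth-matched Ly6c2-negative cells, at 0.95 (adjusted p = 0.205), and Jaml lost it without cells with pDC UMIs, at 0.22 (adjusted p = 0.567).

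Of 18 genes of dendritic cell maturation, 14 passed the filter, 7 fell, 2 rose and 5 were not called, with a median of -0.65. The costimulatory ligands Cd80 and Cd86 changed by -1.17 (adjusted p = 0.000239) and -0.84 (adjusted p = 0.00268). Cd83, which stabilises surface class II, changed by -1.37 ± 0.15 (SE, adjusted p = 7.66e-05). Ccl17, a chemokine for CCR4+ T cells, averaged 54.6 ± 38.5 against 199 ± 179 CPM (mean ± SD, n = 6 libraries) and changed by -1.93 ± 0.38 (SE, adjusted p = 0.00419), lower in 5 of 6 libraries. Without cells with a Siglech UMI, 1 of the 14 fell, 1 rose and 12 were not called (median -0.35), and Cd80, Cd86 and Ccl17 lost their calls at -0.50, -0.36 and -0.92 (adjusted p = 0.129, 0.18 and 0.135). Without cells with UMIs of T cells, B cells and other lineages, 12 of 13 fell and 1 rose (median -1.23). Over all genes, 742 of 6379 were called lower and 597 higher in that set. Without Siglech UMIs 260 of 7905 were lower and 239 higher. Cd200, an inhibitory ligand, rose without overlap (2.33 ± 0.28 SE, adjusted p = 0.000157), and Ccl5, a chemokine of T and NK cells and activated dendritic cells, rose in 5 of 6 libraries (1.04 ± 0.23 SE, adjusted p = 0.00932). Cd200 turned to -0.35 (adjusted p = 0.758) without cells with pDC UMIs and to -0.64 (adjusted p = 0.56) without cells with Siglech UMIs. Ccl5 turned to -0.84 and was called lower without cells with UMIs of other lineages. Ccr7, the receptor that directs mature dendritic cells to lymph nodes, was not called (-0.14, adjusted p = 0.765). The gate had removed cells with more than 1 Fscn1 UMI, a gene of the same mature state. Ccr7 was called lower without UMIs of other lineages (-1.81, adjusted p = 0.000453). Among 11 genes of NF-kB signalling and T helper 17 support, 8 passed the filter and 5 fell (Nfkbia, Nfkbid, Nfkbiz, Nfkb1 and Nlrp3), with a median of -0.57. Nfkbia, the inducible NF-kB inhibitor, changed by -1.05 ± 0.11 (SE, adjusted p = 3.96e-05) without overlap, and its relatives Nfkbid and Nfkbiz by -0.59 and -0.68, while Nfkb1, the p105 subunit, changed by -0.34. Without Siglech UMIs 1 of 8 was called lower. Nlrp3, an inflammasome sensor, lost its call there (-0.27, adjusted p = 0.539), as did Nfkbid (-0.25, adjusted p = 0.299), Nfkbiz (-0.16, adjusted p = 0.526) and Nfkb1 (-0.12, adjusted p = 0.578). The cytokine genes Il23a, Il12b and Il6 did not pass the filter. They had 24, 13 and 11 UMIs in the 429 Ly6c2-positive cells and 108, 64 and 55 in the 2801 Ly6c2-negative cells, and show no direction.

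**Figure D4:**
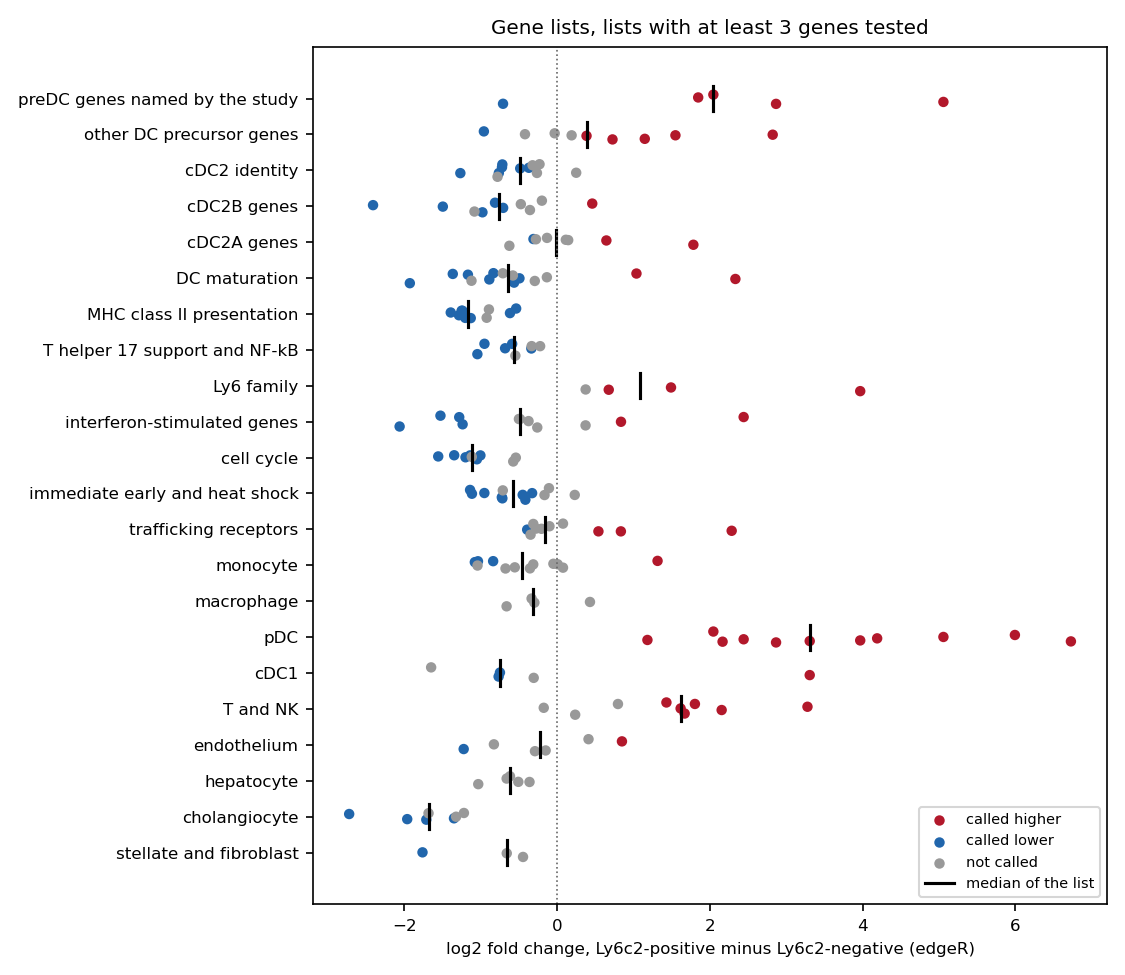
Each point is the log2 fold change (Ly6c2-positive minus Ly6c2-negative cells, edgeR) of 1 tested gene, grouped by list and coloured by whether it was called higher, lower or not, with a bar at the median of each list. All 11 tested pDC genes are called higher, 4 of which passed the filter mainly through the Ly6c2-positive sums, and 8 of 10 MHC class II genes are called lower.

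Of 12 other Ly6 family genes only 4 passed the filter, and Ly6a, Ly6d and Ly6e rose. Without cells with pDC UMIs edgeR called 0 of 3 tested, with Ly6a at 0.51 (adjusted p = 0.184) and Ly6e at 0.22 (adjusted p = 0.269), both under an unadjusted p of 0.05. Without cells with Siglech UMIs none was higher, Ly6d turned to -2.45 (adjusted p = 0.00173) and Ly6e lay at -0.011. Ly6a, the Sca-1 antigen, gave 926, 189, 106, 99.2, 194 and 171 CPM in Ly6c2-positive and 299, 87.1, 32.5, 56.7, 32.3 and 75.8 CPM in Ly6c2-negative cells, higher in 6 of 6 libraries with overlap (1.49 ± 0.18 SE, adjusted p = 0.000117). Ly6e, an entry factor and restriction factor for several viruses, changed by 0.67 ± 0.10 (SE, adjusted p = 0.000549), and Ly6i, a close relative of Ly6c2 whose reads may be shared with it, was not called (0.37, adjusted p = 0.513). Interferon-stimulated genes split: of 15, 11 passed the filter, 4 fell (Ifit3, Isg15, Rsad2 and Cxcl9), 2 rose (Bst2 and Irf7) and 5 were not called, with a median of -0.49. Ifit3, an RNA-binding antiviral effector, averaged 4.78 ± 3.02 against 21.5 ± 10.7 CPM (mean ± SD, n = 6 libraries) and changed by -2.06 ± 0.28 (SE, adjusted p = 0.000378). Isg15, a ubiquitin-like modifier, changed by -1.24 (adjusted p = 0.0018). Rsad2, the antiviral enzyme viperin, changed by -1.28 (adjusted p = 0.0119). Ifit3 reached the level of the filter in 2 of 6 Ly6c2-positive and 6 of 6 Ly6c2-negative sums. Irf7, the regulator of type I interferon transcription that pDC hold at baseline, rose in 6 of 6 libraries (0.84 ± 0.17 SE, adjusted p = 0.00593). Irf7 lost its call without pDC UMIs (0.16, adjusted p = 0.82) and without Siglech UMIs (0.10, adjusted p = 0.893). Cxcl9, a CXCR3 ligand, changed by -1.53 ± 0.41 (SE, adjusted p = 0.0238). Cxcl9 lost its call without any 1 of D0 B, D5 B and D19 B (-1.49 to -1.19).

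Of 14 cell cycle genes, 9 passed the filter, 6 fell, none rose and 3 were not called, with a median of -1.12. Of the 9, 6 did not reach the filter's level in all Ly6c2-positive sums and 4 did not in all Ly6c2-negative sums. Cenpf, which fell, reached it in 3 of 6 Ly6c2-positive and 6 of 6 Ly6c2-negative sums. Mki67, a proliferation marker, averaged 29.2 ± 15.4 against 61.8 ± 23.9 CPM (mean ± SD, n = 6 libraries) and changed by -1.05 ± 0.22 (SE, adjusted p = 0.00632), and Birc5, Cdk1 and Stmn1, genes of mitosis and its spindle, changed by -1.35, -1.56 and -1.14. Without cells with a Siglech UMI, 2 of 10 tested were called, Mki67 (-0.64, adjusted p = 0.039) and Stmn1 (-0.74, adjusted p = 0.0408). In cells with no UMI of Siglech, the other pDC genes or other lineages, edgeR called 0 of 6 (0 with an unadjusted p under 0.05; median -0.15), with Mki67 at -0.084 and Stmn1 at -0.39. Of 12 immediate early and heat shock genes, which respond to handling as well as to signals, 8 fell, none rose and 4 were not called, with a median of -0.58. Dusp1, an early-response MAP kinase phosphatase, fell without overlap (-1.12 ± 0.14 SE, adjusted p = 0.000182), and Fosb, Egr1 and Atf3 changed by -0.72, -0.95 and -1.14. Of 13 trafficking receptors 10 passed the filter, of which Cxcr3, Selplg and S1pr1 rose, Itgb7 fell and 6 were not called (median -0.15). Cxcr3, the receptor of interferon-induced chemokines, gave 64.8, 17.5, 20.1, 22.3, 26.7 and 47.8 against 11.1, 4.93, 2.58, 3.35, 5.52 and 15.3 CPM without overlap (2.28 ± 0.23 SE, adjusted p = 3.73e-05). It reached the level of the filter in 6 of 6 Ly6c2-positive and 2 of 6 Ly6c2-negative sums. Selplg, an adhesion glycoprotein of rolling leukocytes, changed by 0.54 ± 0.12 (SE, adjusted p = 0.00731). It lost its call without pDC UMIs (0.095, adjusted p = 0.708) and without Siglech UMIs (0.11, adjusted p = 0.763). In cells with no UMI of Siglech, the other pDC genes or other lineages it turned to -0.20. S1pr1, the egress receptor, changed by 0.83 (adjusted p = 0.0224) and Itgb7, an integrin of gut homing, by -0.39 (adjusted p = 0.0345). S1pr1 lost its call without any 1 of D5 B and D9 B (0.56 to 0.78). Itgb7 lost its call without any 1 of D9 B, D19 B and STOP (-0.41 to -0.27). Ccr2, the receptor by which monocytes and precursors leave the marrow, was not called (0.076, adjusted p = 0.812), with 439 ± 156 and 401 ± 111 CPM (SD, n = 6).

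Monocytes also express Ly6c2. Of 15 monocyte genes, 12 passed the filter, 3 fell (Ms4a4c, Ifitm6 and S100a4), Plac8 alone rose and 8 were not called, with a median of -0.46 and a summed level of 2851 to 9854 CPM in the Ly6c2-positive and 2687 to 6092 CPM in the Ly6c2-negative cells. Plac8, a cysteine-rich protein of monocytes, pDC and lymphocytes, averaged 1888 ± 577 against 811 ± 376 CPM (mean ± SD, n = 6 libraries) and changed by 1.31 ± 0.19 (SE, adjusted p = 0.000441). Ms4a4c, Ifitm6 and S100a4, genes of classical monocytes, changed by -1.08 (adjusted p = 0.00142), -1.04 (adjusted p = 0.00287) and -0.84 (adjusted p = 0.00473). Without cells with UMIs of Siglech, the other pDC genes or other lineages, the count turned: of 9 tested, 4 rose, Plac8 (1.04), Cebpb (0.84), a transcription factor of myeloid cells, Ccr2 (0.59) and Lyz2 (0.55), none fell and 5 were not called, with a median of 0.34; Ms4a4c, Ifitm6 and S100a4 lay at -0.34, -0.34 and -0.10. Those 4 calls rest on 54 Ly6c2-positive cells and on p-values that do not measure each gene's own spread between libraries. Without cells with a Siglech UMI alone, 2 of 12 fell and none rose (median 0.0093). The defining monocyte genes Chil3, F13a1 and Vcan had 11, 3 and 1 UMIs in all 429 Ly6c2-positive cells and 37, 32 and 10 in all 2801 Ly6c2-negative cells. In all cells edgeR called no tested macrophage gene (0 of 4). The sum was 29.5 to 121 CPM in the Ly6c2-positive and 60.2 to 119 CPM in the Ly6c2-negative cells. Against depth-matched cells Mrc1, a mannose receptor and the 1 tested, was called lower (-1.21, adjusted p = 0.00227). Without UMIs of other lineages the 1 tested was also called lower (-1.10). Of 8 genes of type 1 conventional dendritic cells, 5 passed the filter, of which Irf8 rose as above, while Wdfy4, a cross-presentation factor, and Naaa, a lysosomal amidase, fell (-0.77 and -0.75). Naaa lost its call without any 1 of D0 B, D5 B, D9 B, D19 B and D25 B (-0.81 to -0.58).

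Of 9 T and NK cell genes 6 rose (Cd8a, Cd3d, Cd3e, Cd3g, Trbc2 and Nkg7) and 3 were not called (Klrb1c, Gzma and Ncr1), with a median of 1.62 over the 9. Cd8a, the CD8 alpha chain that T cells and part of the pDC express, gave 78.7, 60.8, 51.7, 36.3, 65.9 and 82 against 2.23, 6.07, 3.76, 3.35, 4.67 and 29.8 CPM without overlap (3.28 ± 0.32 SE, adjusted p = 3.15e-05). Cd8a reached the level of the filter in 6 of 6 Ly6c2-positive and 1 of 6 Ly6c2-negative sums. Cd3d, Cd3e and Cd3g, chains of the CD3 complex, changed by 2.15 (adjusted p = 3.88e-06), 1.80 (adjusted p = 6.65e-05) and 1.43 (adjusted p = 8.21e-05), each higher in 6 of 6 libraries with overlap. CD3e+ cells were a sorted component of the same libraries. The 1 tested B cell gene, Cd79b of the B cell receptor, rose in 5 of 6 libraries (1.05 ± 0.21 SE, adjusted p = 0.00501). The B cell sum was 14.5 to 382 CPM in the Ly6c2-positive and 7.96 to 186 CPM in the Ly6c2-negative cells.

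Of 7 cholangiocyte genes 4 fell, none rose and 3 were not called (median -1.68, sum 23.2 to 2328 CPM in the Ly6c2-positive and 97.6 to 4424 CPM in the Ly6c2-negative cells). Of the 7, 6 were called lower without Siglech UMIs (median -2.06) and 6 without pDC UMIs (median -2.05). Over all genes, 260 of 7905 and 366 of 7892 were called lower in these sets. In all cells Krt8, Krt7, Krt19, Tm4sf4 and Sox9 each reached the level of the filter in 3 of 6 Ly6c2-positive sums. Each did so in 5 of 6 Ly6c2-negative sums, so their direction is partly set by the filter. Spp1, osteopontin, averaged 376 ± 607 against 1386 ± 1248 CPM (mean ± SD, n = 6 libraries) and changed by -2.72 ± 0.61 (SE, adjusted p = 0.00889). Epcam, the adhesion molecule used in the sort, changed by -1.71 (adjusted p = 0.0018), Krt8 by -1.96 (adjusted p = 0.0156) and Krt7 by -1.35 (adjusted p = 0.0483). Krt8 lost its call without D19 B (-2.12). Krt7 lost its call without any 1 of D0 B, D9 B, D19 B, D25 B and STOP (-1.52 to -0.91). Spp1 lost its call against depth-matched Ly6c2-negative cells, at -1.70 (adjusted p = 0.0648), and with the Ly6c2-positive class set at 1 UMI, at -1.15 (adjusted p = 0.213). Of 6 tested endothelial genes Lyve1 fell and Cdh5 rose (-1.22, adjusted p = 0.0297, and 0.85, adjusted p = 0.0473). Lyve1 lost its call without any 1 of D19 B, D25 B and STOP (-1.27 to -0.98). Cdh5 lost its call without any 1 of D0 B, D5 B, D9 B, D19 B and D25 B (0.66 to 0.98) and against depth-matched cells (0.22, adjusted p = 0.716). It turned to -0.45 without pDC UMIs and to -0.14 without Siglech UMIs. Rgs5, a pericyte gene, was the 1 of 3 tested stellate and fibroblast genes called (-1.76, adjusted p = 0.0357). Rgs5 lost its call without any 1 of D9 B, D19 B, D25 B and STOP (-2.15 to -1.08). In all cells edgeR called no neutrophil gene (0 of 2 tested, 0 with an unadjusted p under 0.05) and no hepatocyte gene (0 of 5 tested, 2 with an unadjusted p under 0.05); their sums were 1.09 to 735 CPM in the Ly6c2-positive and 2.69 to 694 CPM in the Ly6c2-negative cells, and 149.8 to 1981 CPM in the Ly6c2-positive and 287 to 824 CPM in the Ly6c2-negative cells. Without Siglech UMIs, the neutrophil genes S100a8 (-5.92) and S100a9 (-5.02) and the hepatocyte genes Alb (-2.03) and Ttr (-1.71) were called lower (adjusted p = 1.72e-08, 3.14e-08, 0.00142 and 0.0288), and without pDC UMIs S100a8 (-5.13), S100a9 (-4.82) and Alb (-1.65) were. In all cells S100a8, S100a9 and Ttr reached the level of the filter in 2, 3 and 5 of 6 Ly6c2-positive sums. They did so in 5, 5 and 6 of 6 Ly6c2-negative sums, so their direction is partly set by the filter. For the remaining sums, endothelial genes gave 135 to 329 CPM in the Ly6c2-positive and 111 to 354 CPM in the Ly6c2-negative cells, stellate and fibroblast genes 4.36 to 1577 CPM in the Ly6c2-positive and 4.51 to 512 CPM in the Ly6c2-negative cells, and genes of type 1 conventional dendritic cells 133 to 249 CPM in the Ly6c2-positive and 196 to 273 CPM in the Ly6c2-negative cells. The part of each of these markers in the class difference was not tested.

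Among the genes with the greatest called increase, where the mean log2 CPM reached 5, were Siglech, Cd8b1, Ly6d, Runx2, Lair1, Cd300c, Cd209d, Bst2 and Ctsl. Of these, all but Ly6d separated the classes without overlap. Cd8b1, the CD8 beta chain, changed by 4.05 ± 0.40 (SE, adjusted p = 3.28e-05). Cd300c, an activating receptor of myeloid cells and pDC, changed by 2.71 ± 0.16 (SE, adjusted p = 8.36e-07). Cd209d, a paralogue of the gating lectin with which it may share reads, changed by 2.58 ± 0.11 (SE, adjusted p = 9.46e-08). Ctsl, the lysosomal protease cathepsin L, gave 3112, 263, 403, 552, 340.3 and 256 CPM in Ly6c2-positive and 97.1, 73.7, 96.3, 118, 102 and 108 CPM in Ly6c2-negative cells, in the order D0 B to STOP, and D0 B stood apart above all other libraries (2.32 ± 0.37 SE, adjusted p = 0.00102). Ctsl was at -0.092 (adjusted p = 0.898) without cells with pDC UMIs and at 0.17 (adjusted p = 0.811) without cells with Siglech UMIs. In the other direction stood Spp1, Lcn2, Mgl2, Batf3, Hpgd, Clec4b1, Cxcl2, Krt8, Ptgs2 and Ccl17. Batf3, a basic leucine zipper factor of conventional dendritic cells, fell from 217, 60.5, 37.6, 58.6, 73.5 and 100.2 CPM in Ly6c2-negative to 20.8, 28.9, 15.3, 4.19, 9.41 and 20.5 CPM in Ly6c2-positive cells without overlap (-2.15 ± 0.29 SE, adjusted p = 0.000332). Ptgs2, the inducible cyclooxygenase, and Hpgd, which degrades prostaglandins, changed by -1.96 (adjusted p = 6.65e-05) and -2.11 (adjusted p = 0.000104). Clec4b1, a lectin of cDC2, changed by -2.02 (adjusted p = 8.45e-05). Cxcl2, a neutrophil chemokine, changed by -2.01 (adjusted p = 0.00235). Lcn2, the siderophore-binding lipocalin of epithelium and neutrophils, changed by -2.62 (adjusted p = 0.00323).

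Over single gated cells, the genes that followed Ly6c2 itself most closely included Siglech, Lefty1, Cd300c, Bst2, Cd209d, Cd8b1, Atp1b1, Tcf4 and Plac8, by the mean within-library Spearman correlation of depth-scaled levels over 6 libraries and 5948 genes. The mean rho was 0.46 for Siglech (range 0.28 to 0.77), 0.41 for Lefty1, a TGF-beta family antagonist and 0.33 for Plac8. H2-Eb1 and H2-Aa were the most opposite, at -0.44 and -0.44. These values describe cells that share a library and its depth, and are weak in sparse counts.

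The Ly6c2-positive cells were then compared after cells with transcripts of other lineages were left out of both classes. Without cells holding a UMI of Cd3e, Cd3d, Cd79a, Cd79b, S100a8, Krt19 or Stab2 (211 Ly6c2-positive and 1935 Ly6c2-negative cells), 1339 of 6379 genes were called, and Siglech, Runx2, Tcf4 and Cd7 were higher and Csf1r lower as before. Of the T and NK cell genes 4 could then be tested and only Cd8a was called, rising by 4.49 ± 0.54 (SE, adjusted p = 8.21e-06), and Ccl5 then lay at -0.84 ± 0.28 (SE, adjusted p = 0.0387). Without cells with a UMI of Ly6d, Ccr9, Klk1, Cox6a2 or Pacsin1 (219 Ly6c2-positive and 2580 Ly6c2-negative cells), 616 of 7892 genes were called; Siglech rose by 2.59 ± 0.19 (SE, adjusted p = 5.96e-08), Runx2 by 1.78 ± 0.26 (SE, adjusted p = 0.00012), Tcf4 by 1.14 ± 0.13 (SE, adjusted p = 1.18e-05) and Cd7 by 1.60 ± 0.32 (SE, adjusted p = 0.00313), and Csf1r was not called at -0.17 ± 0.13 (SE, adjusted p = 0.576). Of 83 named genes tested, 15 kept direction and lost their call in that set (Csf1r, Lair1, Dpp4, Jaml, Nr4a3, Cd86, Nfkb1, Ly6a, Ly6e, Irf7, Birc5, Selplg, Itgb7, Cd79b and Naaa), and 4 turned sign. Without cells holding a Siglech UMI, an exclusion chosen after seeing the data (169 Ly6c2-positive and 2584 Ly6c2-negative cells), 499 of 7905 genes were called, and 104 of the 1319 genes called in all cells that could be tested had the opposite sign. Among these cells Runx2 rose by 1.01 ± 0.29 (SE, adjusted p = 0.0399), Tcf4 by 0.49 ± 0.11 (SE, adjusted p = 0.00932) and Cd7 by 1.64 ± 0.37 (SE, adjusted p = 0.0088), and Csf1r was not called at -0.41 ± 0.13 (SE, adjusted p = 0.0727). Cd3d and Cd3e were then higher by 2.94 and 2.48, Mgl2 was lower (-1.55), and Ly6d turned to -2.45 ± 0.46 (SE, adjusted p = 0.00173).

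The strictest set, also chosen after seeing the data, left out cells with a UMI of Siglech, of the other pDC genes or of those other lineages, and kept 54 Ly6c2-positive and 1689 Ly6c2-negative cells, with as few as 5 Ly6c2-positive cells in a library. In it 198 of 5562 genes were called, 39 higher and 159 lower, and 188 of the 1010 testable genes called in all cells had the opposite sign. Here edgeR held the spread of each gene at the level common to genes of like abundance. The p-values of this set therefore do not measure each gene's own spread between libraries. Of the preDC genes 3 could be tested: Tcf4 (1.11 ± 0.20 SE, adjusted p = 2.87e-06) and Runx2 (1.61 ± 0.36 SE, adjusted p = 0.00072) were higher, and Csf1r was not called (-0.23 ± 0.25 SE, adjusted p = 0.834). Of 9 other precursor genes Bcl11a rose by 1.02, Kit was lower (-1.50) and 7 were not called, Satb1 at 0.60 (adjusted p = 0.511) and Lair1 at 0.87 (adjusted p = 0.306) among them. Ccr2, not called in all cells, rose by 0.59 ± 0.17 (SE, adjusted p = 0.0154). Bst2 and Cd209d rose by 1.97 and 2.38, and Plac8 by 1.04. Of the MHC class II genes 6 of 8 fell, among them H2-Eb1 (-1.25), H2-Aa (-1.00) and Cd74 (-0.93), and Mgl2 (-3.28) and Batf3 (-1.78) fell as well. Of the named genes that could be tested, 24 of 63 kept direction and lost their call in this set (Csf1r, Satb1, Lair1, Clec4a2, Dpp4, Clec12a, Jaml, Nr4a3, Cd86, Nfkbid, Nfkb1, Ly6a, Ly6e, Irf7, Isg15, Mki67, Stmn1, Atf3, Ms4a4c, Ifitm6, S100a4, Wdfy4, Naaa and Cxcl2). Without cells with a Siglech UMI it was 26 of 84 (Csf1r, Lair1, Bcl11a, Clec4a2, Nr4a3, Cd80, Cd86, Ccl17, Nfkbid, Nfkbiz, Nfkb1, Ly6a, Irf7, Ifit3, Rsad2, Birc5, Cdk1, Selplg, Itgb7, Plac8, Ms4a4c, Cd79b, Lyve1, Wdfy4, Naaa and Ctsl), and against depth-matched Ly6c2-negative cells 7 of 80 (Cd4, Nr4a3, Nfkb1, S1pr1, Cdh5, Spp1 and Lcn2). With the Ly6c2-positive class set at 1 UMI, 18 of 90 did so (Csf1r, Clec12a, Jaml, Rsad2, Birc5, Mki67, Cdk1, Selplg, Itgb7, Cdh5, Epcam, Spp1, Krt8, Krt7, Rgs5, Naaa, Lcn2 and Cxcl2). Genes that turned sign are left out of these counts and given below. Of the other lists, 1 of 8 tested NF-kB genes and 4 of 12 immediate early and heat shock genes fell without Siglech UMIs, and 3 of 8 and 3 of 12 in the strictest set; of the cDC2 identity genes 4 of 11 and 2 of 10 fell. Cells chosen for lacking Siglech and pDC UMIs are chosen on genes that vary with Tcf4 and Runx2, so these folds describe the cells kept and are no measure of the excluded ones.

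**Figure D5:**
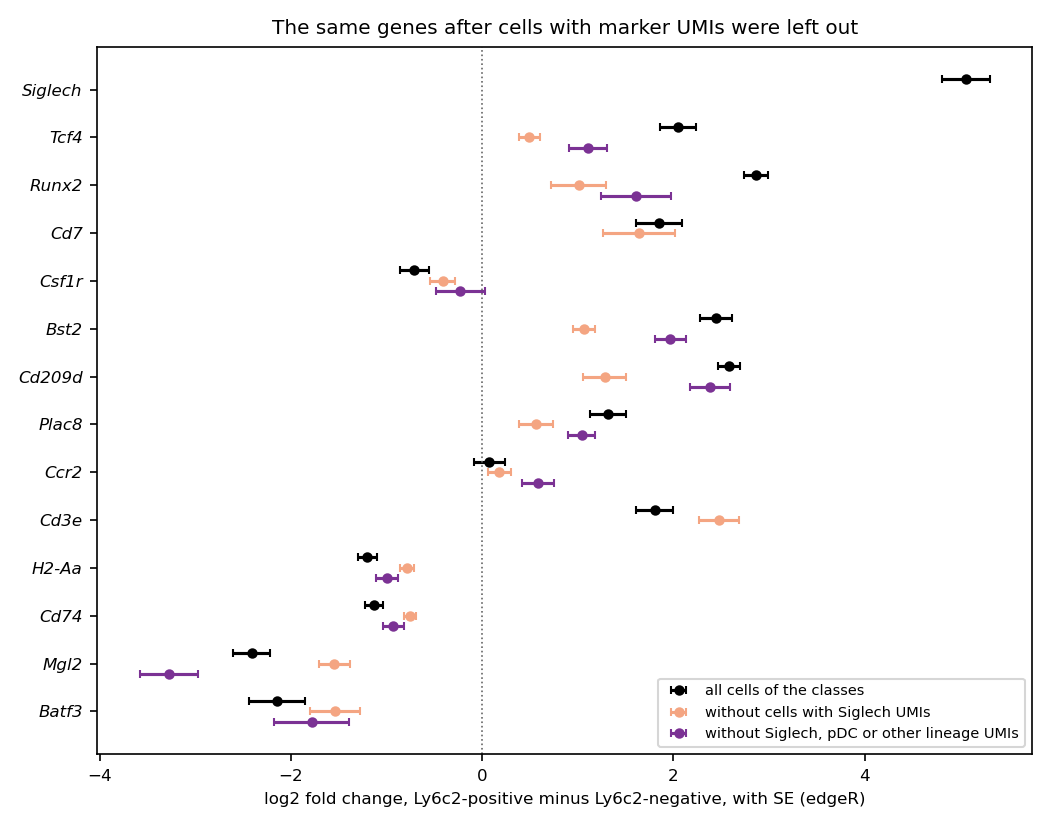
Points give the log2 fold change (Ly6c2-positive minus Ly6c2-negative cells) with its SE for the same genes in all cells, without cells with a Siglech UMI and in the strictest set. Tcf4 and Runx2 stay above 0 and Mgl2 and H2-Aa below 0 in each set in which they were tested.

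Whether the class difference changed with the course of disease was tested as an interaction of class with later (D9 B, D19 B and D25 B) against earlier (D0 B and D5 B) libraries, STOP left out. edgeR called 0 of 8857 genes (0%; 194 with an unadjusted p under 0.05), and DESeq2 called 0 (55 with an unadjusted p under 0.05). The later-minus-earlier difference of the log2 fold change was -0.34 ± 0.34 (SE) for Siglech, -0.64 ± 0.39 for Tcf4, -0.13 ± 0.24 for Runx2 and 0.48 ± 0.36 for Mgl2. On data simulated at this design, 16% of genes with a log2 change of 1 and 74% of those with a log2 change of 2 were recovered (8888 genes), so changes of the class difference near the smaller size were largely not detectable. The simulation gave every gene the common dispersion, so these rates do not cover genes that vary more between libraries.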

How the data were processed

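Liver cells were profiled with droplet 3′ single-cell RNA-seq kits (Chromium v3.1). The authors deposited UMI counts per gene and barcode (55353 genes, 13 libraries), unfiltered and not normalized; the submitters' processing notes name kallisto and GRCm38, and the version of kallisto is not given in the sources used here. Groups, days and protocols came from sample titles. Barcodes with at least 1500 UMIs were kept, gated and split as described; no doublets were removed. Counts were summed per library and class and tested with edgeR 4.0.16 (R 4.3.3; filterByExpr, TMM, glmQLFit and glmQLFTest, library as block) with Benjamini-Hochberg adjustment at 0.05; the 9 genes of the gate counted in library sizes only. DESeq2 1.42.0 was an alternative, and others varied the filter, block, Ly6c2 and UMI minimum, depth, and cells with monocyte, pDC or other lineage UMIs. Shares were compared with exact permutation tests within protocol. On simulated data of the class design (8643 genes), 74% of genes with a log2 change of 1 and 92% of those with 2 were recovered, with 4.05% false calls. Simulated counts of all genes shared the common dispersion, so these rates do not cover genes that vary more between libraries. Named genes were the study's 5 preDC genes and Mgl2, the 10 greatest called changes in each direction where the mean log2 CPM reached 5, up to 4 called genes per list and direction by smallest p, and the tested Ly6 family genes; others named with a list count were chosen after their values were seen, and 1 item is not reported here. The members and gene lists were chosen with earlier results of these data known. Promoters and transcripts came from RefSeq (GRCm38.p6) and GENCODE.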

Additional observations from a re-analysis of the deposited data

Results flagged for a closer look

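The 92 checks for a library apart covered the class ratio of the 90 named genes and the Ly6c2-positive share within protocols A and B. The ratio was the log2 ratio of Ly6c2-positive to Ly6c2-negative CPM with 10 CPM added to both, over 6 libraries each. In 7 of the ratios 1 library lay beyond Dixon's 95% critical value. Chance alone marks about 1 in 20 such groups. Steady state, D0 B, was the library apart in 6 of the 7. Its ratio was 3.17 for Tcf4 (others 1.44 to 2.06), 1.03 for Clec12a (others 0.24 to 0.37) and 4.87 for Ctsl (others 1.18 to 2.13), above the other libraries. It was -1.75 for Csf1r (others -0.69 to -0.34), -2.68 for Clec4a2 (others -1.16 to -0.57) and -2.06 for S100a4 (others -1.02 to -0.45), below the other libraries. STOP stood apart with 0.36 for Klk1 (others 3.56 to 5.46), where the Ly6c2-positive sum held 1 Klk1 UMI. D0 B was also the library with the largest share of Ly6c2-positive cells with pDC UMIs (84.4%), the smallest with T cell UMIs (20%) and the lowest median depth (4469.5 UMIs); the part of these in its ratios was not tested.

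Outside the comparison, 6 further libraries held 46 Ly6c2-positive and 670 Ly6c2-negative cells, too few per library for a test. Their pooled unscaled levels were 606 CPM in Ly6c2-positive and 10.5 in Ly6c2-negative cells for Siglech, higher in 6 of 6 libraries, 527 and 194 CPM for Tcf4, higher in 5 of 6, and 135 and 23.8 CPM for Runx2, higher in 5 of 6. Of the 46 Ly6c2-positive cells 18 were of D3 B; without that library the 2 levels were 942 and 7.54 CPM for Siglech, 729 and 204 for Tcf4 and 168 and 23.1 for Runx2. Csf1r stood at 177 and 139 CPM, higher in 4 libraries and lower in 2, against a lower level in all 6 compared libraries; this difference was not tested. Cd7 had 13.1 and 6.46 CPM, from 10 and 54 UMIs (29.0 and 8.03 CPM without D3 B), higher in 2 libraries and lower in 2, and Mgl2 had 63.0 and 193 CPM, lower in 6 of 6.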

How the results depend on the processing

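Of 1819 alternative values for the 90 named genes, over 21 settings, 1589 kept direction and call, 206 kept direction and lost the call, 1 gained it and 23 reversed. Against 1425 genes called (682 higher, 743 lower), DESeq2 called 1260 (569 and 691), and leaving out 1 library at a time gave 951 to 1391, lowest without D19 B. The pairing comes from the shared library: with no replicate block 371 genes were called (239 higher, 132 lower), all of them also called with it. Without a filter on low counts 2075 were called (682 higher, 1393 lower), and against depth-matched Ly6c2-negative cells, with fewer cells and 5968 genes tested, 863. Leaving out cells with pDC UMIs gave 616, cells with Siglech UMIs 499, and cells with any of these or of other lineages 198 (39 higher, 159 lower); fewer cells entered each. The class-by-stage interaction, 0 genes with all libraries, gave 23 without a filter and 0 to 2 without 1 library (Ctsl and Atp1b1 without D5 B, S100a9 without D19 B, the names chosen after their values were seen). Without pDC UMIs the share of Ly6c2-positive cells differed by -0.160 points between progression and onset, the reverse of 2.42; without 1 library at a time that difference ran from 0.841 to 4.84, and the one between DDC and steady state from -8.78 to -4.64.

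Reversals among named genes were, without pDC UMIs, Clec12a -0.17, Cd200 -0.35, Cdh5 -0.45 and Ctsl -0.092. Without Siglech UMIs they were Ly6d -2.45, Clec12a -0.24, Cd200 -0.64, Cdh5 -0.14, Jaml -0.0055 and Ly6e -0.011. Without UMIs of other lineages, Ccl5 gave -0.84 and Flt3 0.12, and in the strictest set Ccl5 gave -0.76, Birc5 0.39, Selplg -0.20 and Itgb7 0.24. Flt3 was 0.022 against depth-matched cells and -0.089 to 0.012 without 1 library, above 0 without D25 B. Ccr2 was -0.018 without a filter and -0.076 to 0.22 without 1 library, below 0 without STOP and likewise with at least 40 cells per class. Neither was called in all cells. Cxcl9 was 0.096 with Ly6c2-positive cells set at 1 UMI. Where no library or construction is named, the cause was not tested.

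All 6 compared libraries were of protocol B, so a class-by-protocol interaction and a fit within protocol A could not be run, and a fit within protocol B is the one given. With at least 10 cells of both classes, D3 B joined and 1360 genes were called. Depth limited low transcripts such as Cd7 and Irf8, and Ly6c2-positive sums were small in STOP (26 cells).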

Other observations

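The 4 sets of Ly6c2-positive cells (pDC genes alone, pDC and T cell genes, T cell genes alone, neither; 190, 96, 92 and 51 cells) also differed in genes that did not define them, given here as medians of the unscaled level over libraries, without a test and in that order. Cd209d stood at 749, 411, 74.6 and 268 CPM, Ctsl at 769, 397, 53.4 and 48.1 CPM and Plac8 at 2570.2, 1735, 707 and 1512 CPM, each highest in the cells with pDC genes alone. Satb1, at 127, 228, 179 and 67.9 CPM, was highest where both were present and lowest where neither was. Ccr2, at 539.7, 415, 429 and 725 CPM, and Csf1r, at 82.6, 48.5, 60 and 144 CPM, were highest in the cells with neither. In that set Csf1r stood at 81.5, 126, 257, 207, 152 and 137 CPM from D0 B to STOP, on 3 to 19 cells per library. Ly6c2-negative cells with neither had 60.4, 118, 171, 172, 109 and 85.1 CPM, lower in each library, the reverse of the comparison over all cells. The fitted fold of Csf1r in the strictest set, which left out similar cells, was negative and not called, so this reversal was not seen there. Flt3 gave 185, 139, 100.1 and 128 CPM.

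Mgl2 UMIs were found in 3.85% to 19.4% of Ly6c2-positive and 8.94% to 46.4% of Ly6c2-negative cells per library, and Mgl2 together with Siglech in 0% to 10% and 0.83% to 2.48%. Ccr9, the gut-homing chemokine receptor of pDC, had 48 UMIs in the 429 Ly6c2-positive and 7 in the 2801 Ly6c2-negative cells, and Myb, a progenitor transcription factor, had 40 and 30.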
